A study of Mus musculus with 6 samples.

Results

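Glucuronosyltransferases (UGTs) and glutathione transferases (GSTs) were followed in mouse liver by RNA sequencing. The genes were the protein-coding members of the Ugt1a, Ugt2a, Ugt2b, Ugt3a, Gsta, Gstm, Gstp, Gstt, Gstk, Gsto, Gstz and Mgst families, taken by symbol from the GENCODE annotation. Of 46 genes with such a symbol, 44 had at least 1 read in the 6 libraries, out of 54232 genes counted in all. The 2 without a read were Ugt2a1 and Ugt2a2.

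The 2 groups were DKO (Fxr-/-Xbp1LKO), which lacked FXR and, in the liver, XBP1, and SKO (Fxr-/-Xbp1fl/fl), which lacked FXR and carried floxed Xbp1 alleles. All libraries came from male C57BL/6 mice on chow, 8 to 10 weeks old, with 3 libraries per group. Both groups were FXR-null, so every difference is between FXR-null livers without and with hepatic XBP1. No source used here names the Cre driver. The titles of 3 DKO libraries and 1 SKO library hold 2 numbers each, and whether animals were pooled is not stated. The p-values cover only the variation among the 6 libraries, part of which may be technical.

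UGTs are enzymes of the endoplasmic reticulum membrane that join glucuronic acid, taken from UDP-glucuronic acid, to bilirubin, steroids, bile acids and drugs, which makes them soluble enough to leave in bile or urine. GSTs join glutathione to reactive electrophiles; most are cytosolic, and the MGST proteins are membrane enzymes of a separate fold. Liver is a main site of both reactions, and several of these genes are known targets of the factors NRF2, AhR, CAR and PXR. XBP1 drives genes of the unfolded protein response, and FXR is the nuclear bile acid receptor.

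Total counts were 18382107 to 21107674 in DKO and 16966422 to 20211285 in SKO. Levels are CPM, counts relative to library size scaled by TMM factors. Where a library had no read, up to 3 counts are possible by counting error, or 0.126 to 0.191 CPM. Xbp1 (chromosome 11, 5520659 to 5525893, mm10) stood at 77.1 ± 16.3 CPM in DKO and 247 ± 18.9 CPM in SKO (SD, n = 3 each; log2 fold change -1.68, edgeR adjusted p = 0.000146). Nr1h4, which encodes FXR, stood at 97.4 ± 3.35 CPM in DKO and 98.6 ± 5.94 CPM in SKO; these counts cover the whole gene and do not check the Fxr allele. Of the hepatocyte markers in the files, 4 of 5 fell in DKO at an edgeR adjusted p under 0.05, beside 9.7% of all genes tested. Their summed levels were 47973 to 58785 CPM in DKO and 75769 to 103403 CPM in SKO. In whole liver, fewer cells of a type and less RNA per cell cannot be told apart.

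Of the 44 genes, 40 passed the filter on low counts, and 16 of those differed between DKO and SKO at an edgeR adjusted p under 0.05. That is 40% of the members tested, beside 20% of all 13986 genes tested. Members rose in 7 cases, among them Mgst2, which passed that filter only through DKO, and fell in 9, which is 17.5% and 22.5% of those tested, beside 10.3% and 9.7% of all genes tested. The median log2 fold change of the tested members was -0.06, and that of all genes tested was 0.0059. Scaling by total counts alone moved these medians to 0.16 and 0.23 and gave 14 members higher and 7 lower, beside 27.6% and 3.85% of all genes tested. DKO and SKO libraries did not overlap in 22 of the 40 members, or 55%, beside 39.6% of all genes tested. DKO lay above in 10 of these and below in 12, beside 20.2% and 19.4% of all genes tested. With TMM the 2 classes were not alike in direction. Of 17 UGT genes tested 2 rose and 6 fell, and of 23 GST and MGST genes tested 5 rose and 3 fell. The UGT excess of falls depended on scaling. With total-count scaling Ugt2b34, Ugt2b35 and Ugt2b37 were also called higher, and the fall of Ugt3a1 was not called. Among GST and MGST genes that scaling added the rises of Gstm4, Gstm5, Gsta2 and Mgst3 and lost the fall of Gstz1. Ugt2b38, Gsta1 and Gstp2 were not called once summed with near-identical copies. The difference in direction between the classes was not tested.

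**Figure D1:**
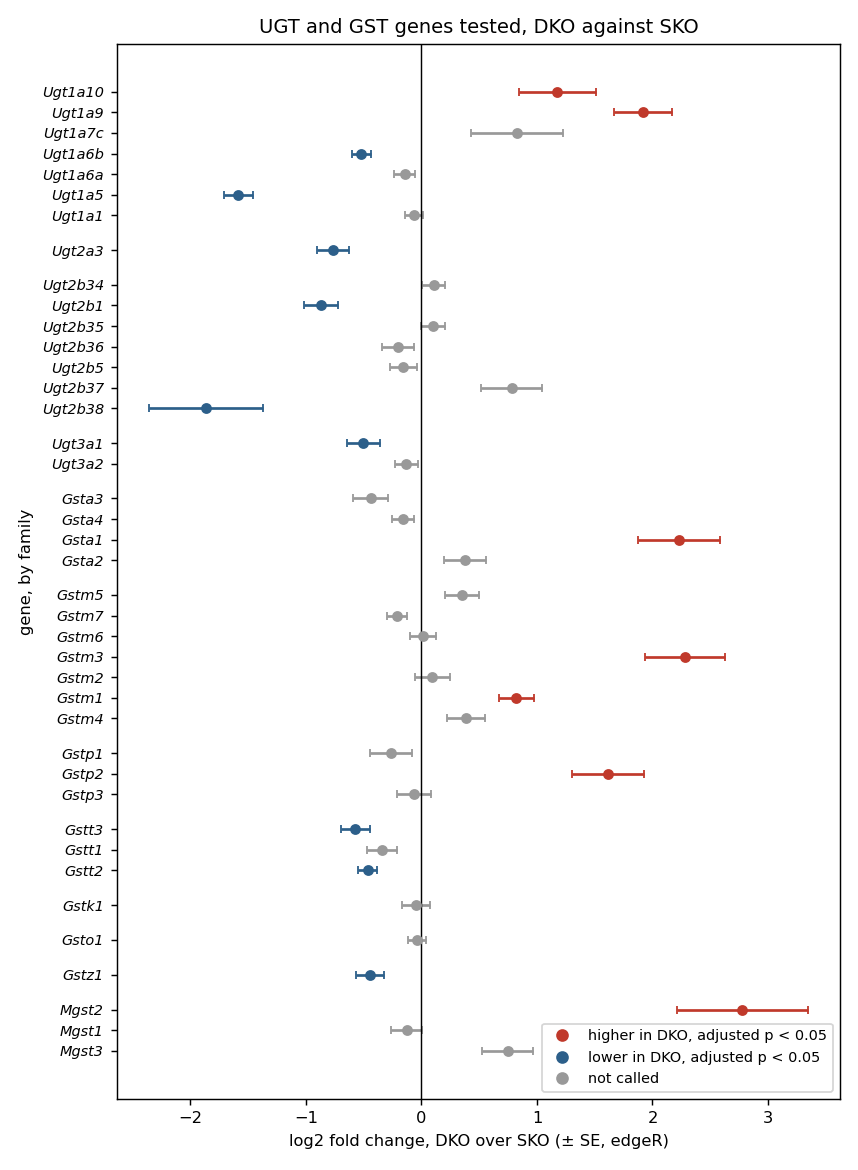
Log2 fold change of DKO over SKO (x axis) for each of the 40 tested genes (y axis, by family and start coordinate), with bars of 1 SE from edgeR. Red points are the 7 genes higher in DKO, blue points the 9 genes lower in DKO, and grey points the 24 genes not called; the rises reach 2.78 (Mgst2) and the deepest fall is -1.86 (Ugt2b38).

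Summed over its members, the mu family (Gstm) was 1.86-fold higher in DKO. Its summed level was 4775, 3702 and 4606 CPM in DKO replicates 1, 2 and 3, against 2371, 2762 and 1909 CPM in SKO replicates 1, 2 and 3 (log2 difference 0.90). Every DKO library lay above every SKO library. Summed levels of Ugt2a, Ugt2b, Ugt3a, Gstt and Gstz lay lower throughout DKO than throughout SKO, with log2 differences of -0.78, -0.23, -0.19, -0.42 and -0.45. With total-count scaling the log2 differences were -0.56 (Ugt2a), -0.01 (Ugt2b), 0.03 (Ugt3a), -0.20 (Gstt) and -0.23 (Gstz), with exact permutation p-values of 0.1, 0.8, 0.6, 0.2 and 0.1, and that of Gstm was 1.12 (exact permutation p = 0.1). With TMM each of these 6 families had an exact two-sided permutation p of 0.1, which is the smallest that 3 against 3 libraries can give and cannot pass 0.05. In the other 6 families DKO and SKO libraries overlapped. Ugt1a summed to 343 ± 12.6 CPM in DKO and 335 ± 9.48 CPM in SKO, and Gsta to 1982 ± 253 CPM in DKO and 2632 ± 426 CPM in SKO. The UGT total was 4642 ± 441 CPM in DKO and 5459 ± 211 CPM in SKO, and the GST and MGST total was 13424 ± 533 CPM in DKO and 13069 ± 1537 CPM in SKO. The log2 difference of the UGT total was -0.24 with TMM and -0.02 with total-count scaling (exact permutation p = 0.1 and 0.8), that of the GST and MGST total 0.04 and 0.26 (0.9 and 0.1), and that of Ugt1a 0.04 and 0.25 (0.5 and 0.1).

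**Figure D2:**
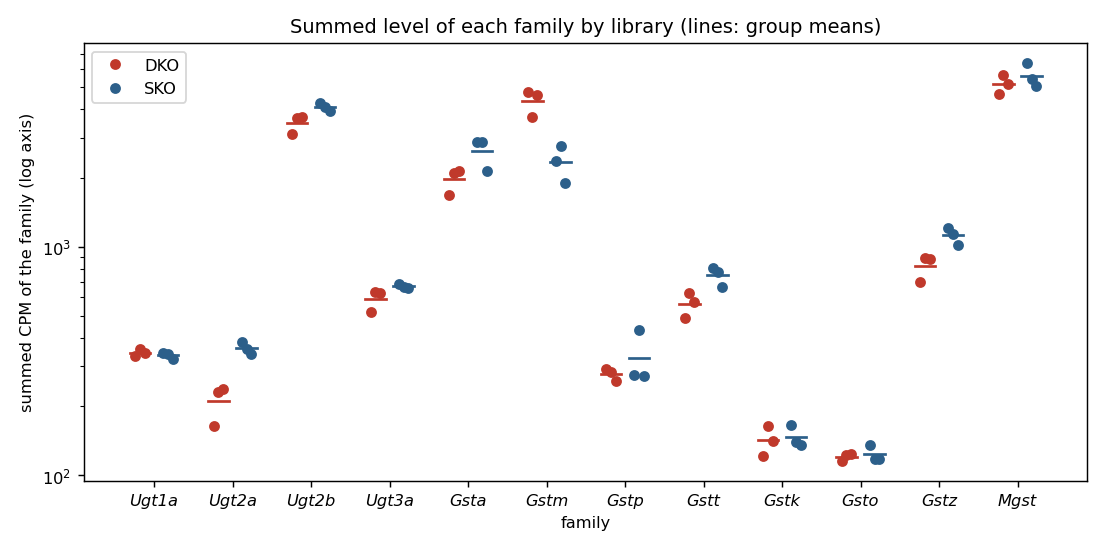
Summed CPM of each family (y axis, log scale) in the 3 DKO libraries (red, left) and the 3 SKO libraries (blue, right), with lines at the group means. Gstm lies higher in DKO, where its libraries sit at 3702 to 4775 CPM, against 1909 to 2762 CPM in SKO, while the points of Ugt1a, Gsta, Gstp, Gstk, Gsto and Mgst overlap between groups.

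The Ugt1a locus on chromosome 1 makes its proteins from separate first exons, each with a promoter of its own, spliced to a set of exons that all share. Reads in the shared exons belong to every gene at once. Ugt1a8 had 2 counts in all 6 libraries, so reads of the shared exons were not counted toward each gene, and the values below rest mainly on the first exons. Within this locus the members moved in opposite directions while the sum of their TMM-scaled levels overlapped between groups.

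Ugt1a9 (88070800 to 88218997, plus strand, mm10) rose in DKO. It stood at 91.0, 97.3 and 95.5 CPM in DKO replicates 1, 2 and 3, against 36.1, 20.6 and 18.7 CPM in SKO replicates 1, 2 and 3 (log2 fold change 1.92 ± 0.25, SE; edgeR adjusted p = 0.0057). The DKO libraries were close together and all above SKO, where replicate 1 was the highest. Ugt1a10, at the 5′ end of the locus, also rose, at a low level in both groups: 1.47, 2.20 and 1.51 CPM in DKO and 1.08, 0.71 and 0.51 CPM in SKO (log2 1.18 ± 0.33, edgeR adjusted p = 0.033). Its call was lost when replicate 2 or 3 of either group was left out, with an edgeR adjusted p of up to 0.115.

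Ugt1a5 (88166012 to 88218997) fell in DKO and had the smallest adjusted p of all members. It stood at 18.7, 16.0 and 21.9 CPM in DKO, against 58.4, 62.2 and 49.2 CPM in SKO (log2 -1.59 ± 0.13, edgeR adjusted p = 8.48e-05), so the groups lay far apart. Ugt1a6b, whose family acts on planar phenols, stood at 32.2, 37.4 and 34.6 CPM in DKO and 49.1, 53.3 and 47.1 CPM in SKO (log2 -0.52 ± 0.08, edgeR adjusted p = 0.00253). Of its 50-base words 79.8% occur in other genes of the locus, with the shared exons included. That share was 80.2% for Ugt1a1, 67.1% for Ugt1a10, 64% for Ugt1a5 and 62% for Ugt1a9. It was not measured for the first exons alone, so the split of reads with other genes of the locus is uncertain. Summed with Ugt1a6a, Ugt1a6b was 51.3 ± 3.65 CPM in DKO and 68.1 ± 3.93 CPM in SKO (log2 -0.41 ± 0.08, edgeR adjusted p = 0.00616). Its near neighbour Ugt1a6a was not called, at 16.5 ± 1.04 CPM in DKO and 18.3 ± 0.94 CPM in SKO (log2 -0.14). Ugt1a1, the bilirubin-conjugating enzyme and the most counted gene of the locus, was not called either, at 175 ± 8.26 CPM in DKO and 183 ± 6.91 CPM in SKO (log2 -0.06 ± 0.08, edgeR adjusted p = 0.594).

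The make-up of the locus can be read within a library, where scaling between libraries plays no part. Ugt1a9 gave 27.5%, 27.3% and 27.9% of Ugt1a counts in DKO and 10.5%, 6.11% and 5.75% in SKO. Ugt1a5 gave 5.63%, 4.498% and 6.41% in DKO and 17.04%, 18.4% and 15.2% in SKO. Ugt1a1 gave 51.1% ± 1.17 in DKO and 54.8% ± 3.66 in SKO. For each of these 3 shares the libraries of the groups did not overlap (exact two-sided permutation p = 0.1, the smallest possible).

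**Figure D3:**
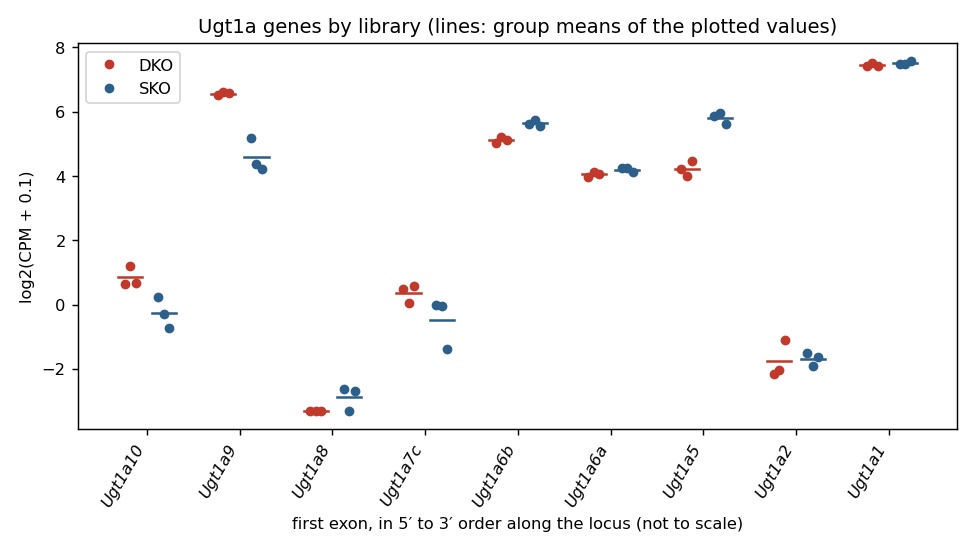
Level of the 9 Ugt1a genes as log2(CPM + 0.1) (y axis) in DKO (red, left) and SKO (blue, right) libraries, in 5′ to 3′ order along the locus, with lines at the group means of the plotted values. Ugt1a10 and Ugt1a9 at the 5′ end lie higher in DKO, Ugt1a6b and Ugt1a5 lie lower in DKO, and Ugt1a1 at the 3′ end overlaps between groups.

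Because each first exon has its own promoter, the 150 bases before the start of 4 of these genes are given here, for the 2 that rose, for Ugt1a5, which fell, and for Ugt1a1, which was not called. They are from RefSeq (GRCm38.p6, plus strand, 5′ to 3′), and the last 23 bases of the Ugt1a10 window lie inside the gene as GENCODE places it. Capitals mark matches on either strand to GTTAAT, a half-site of the liver factor HNF1, or to GCGTG, the core of the AhR response element.
Ugt1a9, chr1:88070629-88070778: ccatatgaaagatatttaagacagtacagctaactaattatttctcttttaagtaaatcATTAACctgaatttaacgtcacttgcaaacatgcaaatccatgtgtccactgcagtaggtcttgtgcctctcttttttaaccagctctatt
Ugt1a10, chr1:88055261-88055410: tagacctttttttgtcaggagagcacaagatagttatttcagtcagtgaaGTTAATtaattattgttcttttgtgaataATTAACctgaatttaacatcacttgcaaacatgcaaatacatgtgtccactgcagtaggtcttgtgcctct
Ugt1a5, chr1:88165862-88166011: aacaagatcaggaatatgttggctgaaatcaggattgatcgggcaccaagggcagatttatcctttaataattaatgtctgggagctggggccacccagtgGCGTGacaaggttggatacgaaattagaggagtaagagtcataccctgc
Ugt1a1, chr1:88211809-88211958: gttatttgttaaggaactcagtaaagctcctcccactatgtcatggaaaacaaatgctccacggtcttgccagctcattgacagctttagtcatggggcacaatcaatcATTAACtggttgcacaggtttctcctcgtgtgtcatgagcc

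Over the 250 bases before the RefSeq start, Ugt1a9 and Ugt1a10, the 2 genes that rose, held a run of 32 identical bases. The run reaches the end of the Ugt1a10 window, and its last 23 bases there lie inside the gene as GENCODE places it. Ugt1a9 shared runs of 7 to 11 bases with the windows of Ugt1a1, Ugt1a2, Ugt1a5, Ugt1a6a, Ugt1a7c and Ugt1a8. The HNF1 half-site was matched in both of the genes that rose and also in Ugt1a1 and Ugt1a6a, which were not called. The GCGTG core was matched in Ugt1a5 at 49 bases before its start and in Ugt1a8, which was not tested, at 70 bases. A match is a description of letters only.

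Among UGT2 genes, clustered on chromosome 5, Ugt2b1 (86916638 to 86926530) and Ugt2a3 (87324972 to 87337195) fell and the other abundant members were not called. Enzymes of the UGT2B group are known to act on steroids and bile acids. Ugt2b1 stood at 415, 633 and 592 CPM in DKO, against 977, 1007 and 1010 CPM in SKO (log2 -0.87 ± 0.15, edgeR adjusted p = 0.00364). DKO replicate 1 was the lowest, and the SKO libraries lay close together above all of DKO. Ugt2a3 stood at 165, 232 and 239 CPM in DKO and 383, 358 and 340 CPM in SKO (log2 -0.77 ± 0.14, edgeR adjusted p = 0.00518), again with no overlap.

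Ugt2b36 was the most counted of the UGT genes not called, at 724, 987 and 909 CPM in DKO and 1127, 995 and 896 CPM in SKO (log2 -0.20 ± 0.14, edgeR adjusted p = 0.323). Ugt2b5 followed, at 748, 932 and 902 CPM in DKO and 1006, 977 and 892 CPM in SKO (log2 -0.16 ± 0.11, edgeR adjusted p = 0.367). In both genes the groups overlapped, with DKO replicate 1 the lowest library. Ugt2b34 and Ugt2b35 had log2 fold changes of 0.11 and 0.10 and were not called, except that both were called higher with total-count scaling (edgeR adjusted p = 0.0274 and 0.0415). As a share of UGT counts, Ugt2b1 took 11.7% ± 1.49 in DKO and 18.3% ± 1.02 in SKO, and Ugt2b34 took 19.8% ± 2.33 in DKO and 15.5% ± 0.682 in SKO.

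Ugt2b38 fell and was low in both groups. It stood at 0.84, 2.44 and 1.19 CPM in DKO and 5.98, 2.63 and 7.61 CPM in SKO (log2 -1.86 ± 0.49, edgeR adjusted p = 0.0371), and DKO replicate 2 nearly reached SKO replicate 2. The call was lost when replicate 1 or 3 of either group was left out and with limma-voom (adjusted p up to 0.127). Of its transcript sequence, 37.4% of 50-base words also occur in other genes, namely Ugt2b5, Ugt2b36 and Ugt2b37, so the split of reads is uncertain. With Ugt2b5, Ugt2b37 and Ugt2b38 summed, the log2 fold change was -0.16 and was not called (edgeR adjusted p = 0.366). Ugt2b37 itself was not called (log2 0.78, edgeR adjusted p = 0.0651), but was called higher with DESeq2 (adjusted p = 0.0276), with total-count scaling, without a filter and without SKO replicate 1.

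UGT3 enzymes use other sugar donors than glucuronic acid, as known for the human proteins. Ugt3a1 was called lower, at 56.4, 81.8 and 68.0 CPM in DKO and 112, 88.4 and 92.1 CPM in SKO (log2 -0.50 ± 0.14, edgeR adjusted p = 0.0405). That call was close to the threshold and ended without any single library except DKO replicate 2 and with total-count or upper-quartile scaling (edgeR adjusted p up to 0.119). Its neighbour Ugt3a2 was 523 ± 53.8 CPM in DKO and 574 ± 5.06 CPM in SKO and was not called (log2 -0.13).

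Gstm1 (chromosome 3, 108012255 to 108017973, minus strand) and Gstm3 (107963696 to 107969283) rose in the mu family. Mouse Gstm1 is a main cytosolic GST of liver, and both genes are known in mouse as NRF2-responsive. Gstm1 stood at 3241, 2723 and 3184 CPM in DKO, against 1681, 2078 and 1414 CPM in SKO (log2 0.82 ± 0.15, edgeR adjusted p = 0.0055). Gstm3 stood at 1062, 501 and 902 CPM in DKO, against 181, 206 and 120.0 CPM in SKO (log2 2.28 ± 0.35, edgeR adjusted p = 0.00939), a 4.86-fold difference of means. In both genes all DKO libraries lay above all SKO libraries, and DKO replicate 2 was the lowest of its group.

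The other 5 mu genes, which lie in the same cluster on chromosome 3, were not called. Their log2 fold changes were 0.39 (Gstm4), 0.35 (Gstm5), 0.09 (Gstm2), 0.01 (Gstm6) and -0.21 (Gstm7). Gstm4 was called higher with total-count scaling, without a filter and without SKO replicate 1 (adjusted p = 0.0197, 0.00054 and 0.0144), and Gstm5 with total-count scaling and without SKO replicate 1 (0.0241 and 0.0423). Gstm2 lies between Gstm1 and Gstm3 along the chromosome and stood at 85.1 ± 8.42 CPM in DKO and 79.9 ± 16.9 CPM in SKO. Gstm1 made up 70.2% ± 2.98 of mu counts in DKO and 73.4% ± 2.25 in SKO, with overlapping libraries, while Gstm3 made up 22.2%, 13.5% and 19.6% in DKO and 7.63%, 7.46% and 6.29% in SKO.

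Gstm1 and Gstm3 share sequence with each other and with the processed pseudogenes Gm8834 and Gstm2-ps1, among others, and 28.8% of the 50-base words of Gstm3 and 18.9% of those of Gstm1 occur in another gene. Both pseudogenes were also called higher, at log2 1.95 and 0.83. Summed over these 4 genes, the level was 3882 ± 572 CPM in DKO and 1898 ± 377 CPM in SKO (log2 1.03 ± 0.17, edgeR adjusted p = 0.00293), so the sum was called as well.

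The 150 bases before the start of Gstm1 and, since GENCODE starts Gstm3 further upstream than RefSeq, the 141 bases before the GENCODE start of Gstm3 are given for the 2 mu genes that rose (RefSeq, GRCm38.p6, minus strand, 5′ to 3′). Capitals mark the GCGTG match of Gstm1, and none of the 4 motifs searched was matched in Gstm3.
Gstm3, chr3:107969284-107969424: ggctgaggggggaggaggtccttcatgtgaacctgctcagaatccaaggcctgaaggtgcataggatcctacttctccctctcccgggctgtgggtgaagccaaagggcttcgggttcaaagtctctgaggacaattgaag
Gstm1, chr3:108017974-108018123: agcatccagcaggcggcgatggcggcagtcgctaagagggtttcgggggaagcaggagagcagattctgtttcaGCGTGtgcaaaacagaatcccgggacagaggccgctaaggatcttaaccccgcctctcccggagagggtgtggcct

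Over the 250 bases before the start, 42 of the 46 genes had a RefSeq window, and 4 motifs were searched on both strands. TGACNNNGC, the core of the antioxidant response element, was matched in 3 member promoters, or 7.14%, against 10.2% of 32851 RefSeq promoters. All 3 belong to members not called, namely Gsta3, Gstm5 and Mgst1. It was matched in none of the 7 members that rose and in none of the 7 windows of members that fell. GCGTG was matched in 19.0% of member promoters and 28.2% of all, and ACGTG, the core of the unfolded protein response element, in 11.9% of member promoters and 16.6% of all. GTTAAT was matched in 16.7% of member promoters, namely in Ugt1a1, Ugt1a6a, Ugt1a9, Ugt1a10, Ugt2a3, Ugt3a1 and Gsta3, and in 6.43% of all. No match says only that these letters are not in this window.

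In the alpha family a rare gene rose and the abundant one was not called. Gsta3, known in mouse for conjugating aflatoxin epoxide, stood at 1538, 1955 and 2002 CPM in DKO and 2722, 2716 and 2014 CPM in SKO. Each DKO library was below each SKO library, but DKO replicate 3 and SKO replicate 3 nearly met, and the gene was not called (log2 -0.44 ± 0.15, edgeR adjusted p = 0.069). Gsta3 gave 13.6% ± 1.42 of GST and MGST counts in DKO and 18.9% ± 1.04 in SKO. It was called lower with DESeq2 (adjusted p = 0.0123), without a filter (0.00172) and without SKO replicate 3 (0.0418).

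Gsta1 rose, at 9.54, 4.20 and 5.87 CPM in DKO and 1.65, 1.65 and 0.90 CPM in SKO (log2 2.23 ± 0.36, edgeR adjusted p = 0.00396). Nearly all of its sequence, 90.5% of 50-base words, also occurs in Gsta2 or in the unnamed copies Gm3776 and Gm10639 beside it on chromosome 9. Gm3776 was also called higher, at 5.17, 1.61 and 3.01 CPM in DKO and 0.45, 0.38 and 0.23 CPM in SKO (log2 3.21). Gsta2, the most counted of these copies, was 39.8 ± 2.80 CPM in DKO and 30.6 ± 8.45 CPM in SKO and missed the threshold (log2 0.38, edgeR adjusted p = 0.183), though it was called higher with total-count scaling, without a filter and without SKO replicate 1. The sum of all 4 copies was 49.8 ± 4.91 CPM in DKO and 32.4 ± 8.91 CPM in SKO and missed the threshold (log2 0.62 ± 0.19, edgeR adjusted p = 0.0578). Gsta4, which acts on the lipid peroxidation product 4-hydroxynonenal, was not called (log2 -0.16).

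In the pi family only the rare copy was called. Gstp2 stood at 2.98, 2.44 and 3.27 CPM in DKO and 0.76, 1.43 and 0.62 CPM in SKO (log2 1.61 ± 0.31, edgeR adjusted p = 0.00676), with no overlap. Gstp1, which held nearly all pi counts, was 252 ± 19.1 CPM in DKO and 302 ± 87.2 CPM in SKO and was not called (log2 -0.26), and SKO replicate 2 stood apart at 403 CPM. Of Gstp2 sequence, 54.3% of 50-base words occur in Gstp1 or its pseudogene. The sum of these 3 genes came to -0.25 on the log2 scale (edgeR adjusted p = 0.374), opposite in sign to Gstp2.

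Of 3 theta genes tested 2 fell in DKO, and the zeta gene fell too. Gstt2 (chromosome 10, 75831114 to 75837424) stood at 117, 111 and 123 CPM in DKO, against 164, 172 and 148 CPM in SKO (log2 -0.46 ± 0.08, edgeR adjusted p = 0.00458). Gstt3 stood at 90.1, 125 and 109 CPM in DKO, against 172, 167 and 142 CPM in SKO (log2 -0.57 ± 0.12, edgeR adjusted p = 0.0122). Neither gene's groups overlapped, and Gstt3 lost its call without SKO replicate 2 (adjusted p = 0.0513). Gstt1, which acts on small halogenated compounds, was 339 ± 55.5 CPM in DKO and 429 ± 46.7 CPM in SKO and missed the threshold (log2 -0.34, edgeR adjusted p = 0.0935). It was called lower with DESeq2 (adjusted p = 0.049), without a filter (0.0075) and without DKO replicate 2 (0.0317).

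Gstz1 (chromosome 12, 87147165 to 87164723) is maleylacetoacetate isomerase, an enzyme of tyrosine breakdown. It stood at 703, 891 and 881 CPM in DKO and 1207, 1136 and 1020 CPM in SKO (log2 -0.44 ± 0.12, edgeR adjusted p = 0.0297). Pomt2 and Gm6566 overlap it, and with the strand setting not given their reads may enter or leave its count. The groups did not overlap, but the call was lost without replicate 1 or 2 of SKO, without replicate 1 or 3 of DKO, and with total-count scaling (edgeR adjusted p up to 0.107). Gstz1 gave 6.13% ± 0.584 of GST and MGST counts in DKO and 8.60% ± 0.371 in SKO.

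Of the membrane-bound MGSTs, the most abundant was not called and the rarest rose. Mgst1 (chromosome 6, 138140316 to 138156755) was the most counted of all members, at 4630, 5598 and 5139 CPM in DKO and 6332, 5434 and 5044 CPM in SKO (log2 -0.13 ± 0.14, edgeR adjusted p = 0.543), with overlapping groups. Mgst2, an enzyme with leukotriene C4 synthase activity, had 27, 18 and 25 counts in DKO and 4, 0 and 4 counts in SKO, a ratio of 7.12 (95% exact interval 3.42 to 17.1, counting error only; edgeR adjusted p = 0.00847). Mgst2 passed the low-count filter only through DKO, with 3 DKO and 0 SKO libraries over its minimum, so its call is a description only. Mgst3 was 27.2 ± 3.21 CPM in DKO and 16.2 ± 5.03 CPM in SKO and just missed the threshold (log2 0.75 ± 0.22, edgeR adjusted p = 0.0527). It was called higher in 7 of 11 alternative analyses. Gstk1, a mitochondrial and peroxisomal enzyme, and Gsto1, which reduces dehydroascorbate, were not called (log2 -0.05 and -0.04).

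**Figure D4:**
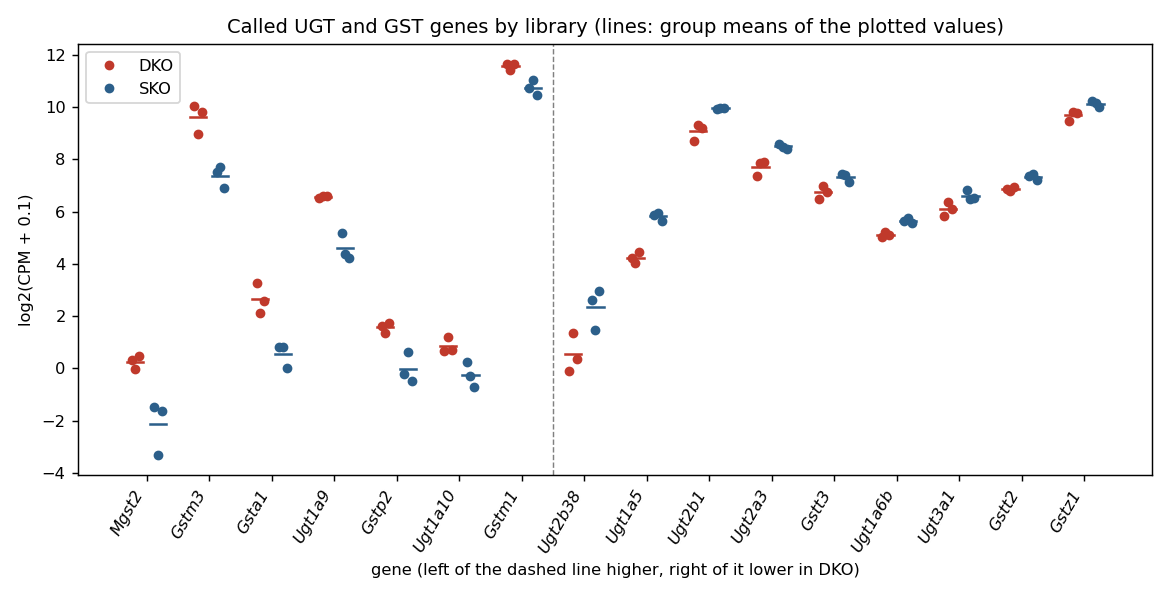
Level of the 16 called genes as log2(CPM + 0.1) (y axis) in the 3 DKO (red, left) and 3 SKO (blue, right) libraries, with lines at the group means of the plotted values; the 7 genes left of the dashed line are higher and the 9 right of it lower in DKO. In all 16 the points of the groups are separate; of the rises, Gstm1, Gstm3 and Ugt1a9 are well expressed, and Mgst2, Gsta1, Gstp2 and Ugt1a10 lie at under 10 CPM in every library.

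As shares of GST and MGST counts within each library, Gstm1 gave 22.8% ± 2.55 in DKO and 13.2% ± 1.76 in SKO, and Gstm3 gave 8.26%, 3.71% and 6.49% in DKO and 1.27%, 1.51% and 1.06% in SKO. Mgst1 gave 38.1% ± 2.86 in DKO and 43.0% ± 2.84 in SKO, with overlapping libraries. The whole class held 1.43% to 1.46% of all counts in DKO and 1.08% to 1.32% in SKO, and UGT genes held 0.466% to 0.518% in DKO and 0.491% to 0.526% in SKO.

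**Figure D5:**
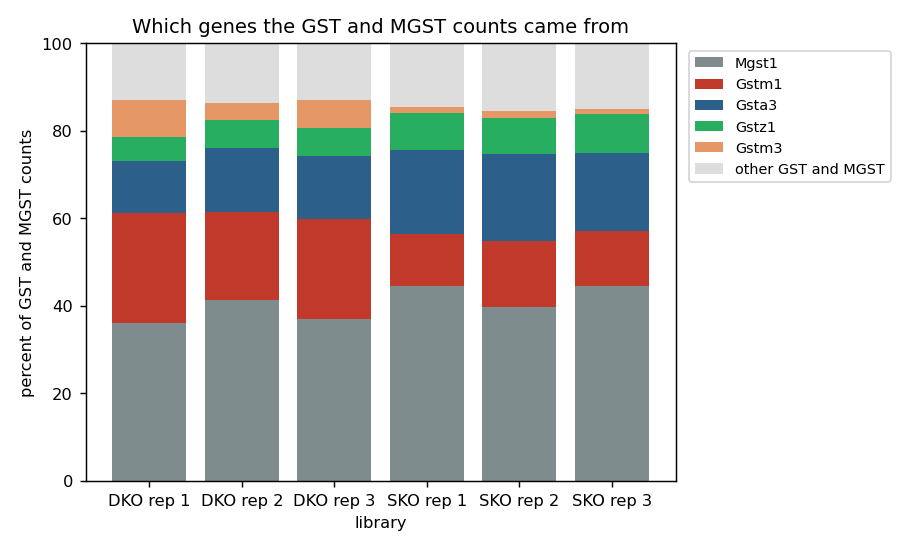
Percent of GST and MGST counts (y axis) that came from each named gene in each library (x axis), DKO left and SKO right. The Gstm1 part is 20.1% to 25.2% in DKO and 11.8% to 15.2% in SKO, and the Gsta3 part is 11.97% to 14.5% in DKO and 17.8% to 19.8% in SKO.

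Levels can be compared between genes only per length. As CPM per kilobase of exon that no other gene covers, Mgst1 was highest, at 2545 in DKO and 2784 in SKO. Gstm1 was next, at 2070 in DKO and 1171 in SKO. Gstm3 stood at 627 in DKO and 129 in SKO on this scale, which put it above Gsta3 in DKO (422) and far below Gsta3 in SKO (572). Of UGT genes, Ugt2b5 and Ugt2b36 stood at 463 and 424 in DKO and 516 and 489 in SKO. Ugt1a1 would stand at 455 in DKO and 476 in SKO if reads on either strand were counted and at 192 in DKO and 201 in SKO if strand was used, since the antisense gene Gm20528 covers part of its first exon and the counting setting is not given.

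The 24 members that were tested and not called ranged from -0.44 (Gsta3) to 0.83 (Ugt1a7c) in log2 fold change. The 4 members with reads that did not pass the filter were Ugt1a2, Ugt1a8, Gsto2 and Gstt4. They averaged at most 0.213 CPM over the 6 libraries, near the level of 3 counts. The size of difference that could be detected at this level was not tested. In the fit without a filter none of the 4 was called (edgeR adjusted p = 0.465 to 0.991), which does not show that they were unchanged.

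Genes around the 2 reactions are given by list, and their counts stand beside 10.3% of all genes tested called higher and 9.7% called lower. The list of UDP-glucuronic acid supply held 5 genes, of which 2 rose and 1 fell. Ugdh, which makes UDP-glucuronic acid, was 459 ± 65.8 CPM in DKO and 328 ± 45.7 CPM in SKO (log2 0.49 ± 0.13, edgeR adjusted p = 0.0298). Gusb, the lysosomal enzyme that removes glucuronic acid, is on the list but is not a supply gene, and rose by 0.28 on the log2 scale. Pgm1, a phosphoglucomutase, fell by 0.28. The 2 rises were down to 0 without DKO replicate 1, DKO replicate 3 or SKO replicate 3 and to 1 without SKO replicate 1 or 2, and the fall was lost without any single library except DKO replicate 2. Among 7 genes of glutathione synthesis and reduction 3 rose and none fell. Gss, glutathione synthetase, was 111 ± 14.8 CPM in DKO and 71.7 ± 5.53 CPM in SKO (log2 0.64 ± 0.10, edgeR adjusted p = 0.00269), and Gsr, glutathione reductase, rose by 0.26. Slc7a11, the cystine transporter, had 259, 20 and 68 counts in DKO and 2, 0 and 1 in SKO, a ratio of 94.1 (95% exact interval 31.9 to 459, counting error only; edgeR adjusted p = 0.0485). DKO replicate 1 held most of these counts, and without it the ratio was 38.2 (12.6 to 189). Slc7a11, and Ugt8a below, also passed the filter only through DKO. Gclc and Gclm, the subunits of the rate-limiting enzyme of glutathione synthesis, were not called (log2 0.22 and -0.06). Only 1 of the 3 rises in this list was called without DKO replicate 3 or any single SKO library.

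Of 14 tested genes of glutathione conjugate breakdown, 2 rose (Ggt5, log2 0.97, and Ggct, log2 0.51) and 1 fell (Acy3, log2 -0.32), which is near the shares of all genes tested. Of 12 genes of conjugate export, 3 rose and 1 fell. The rises in breakdown genes numbered 0 without DKO replicate 1, DKO replicate 3 or SKO replicate 2, and those in export genes 1 without DKO replicate 3, SKO replicate 1 or SKO replicate 2. Abcc5 was 22.9 ± 4.17 CPM in DKO and 10.2 ± 0.486 CPM in SKO (log2 1.17 ± 0.14, edgeR adjusted p = 0.000499), Abcc10 rose by 0.40 and Abcb1a by 0.59, and Abcc6 fell by 0.41. Abcc2, the canalicular exporter of glucuronide and glutathione conjugates, was 878 ± 88.4 CPM in DKO and 1070 ± 70.1 CPM in SKO and missed the threshold (log2 -0.29, edgeR adjusted p = 0.0939), and the basolateral exporter Abcc3 was not called (log2 0.18). Of 8 tested relatives outside the name pattern, 2 rose: Hpgds, a sigma-class GST that makes prostaglandin D2 (log2 1.33), and Ugt8a, a galactosyltransferase (log2 2.28, 0.63, 0.73 and 0.99 CPM in DKO and 0.19, 0.05 and 0.23 CPM in SKO). Rises among the relatives numbered 0 without SKO replicate 2 and 1 without SKO replicate 3. They numbered 4 with upper-quartile and 7 with total-count scaling, beside 13.3% and 27.6% of all genes tested.

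Most known regulators of these families were not called. Of 15 tested, Ahr rose (103 ± 14.2 CPM in DKO and 73.6 ± 5.29 CPM in SKO, log2 0.48 ± 0.11, edgeR adjusted p = 0.0118), and Ppara (log2 -0.66) and Bach1, a repressor at antioxidant response elements (log2 -0.44), fell. Nfe2l2, which encodes NRF2, and Keap1, its inhibitor, had log2 fold changes of 0.02 each and were not called, nor were Nr1i2 (PXR) and Nr1i3 (CAR), at -0.13 and -0.23. The Ahr call was lost without SKO replicate 2.

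Of 12 NRF2 target genes outside the families, which include Gclc, Gclm and Slc7a11, 6 rose and none fell. Ephx1, microsomal epoxide hydrolase, was 1087 ± 52.3 CPM in DKO and 609 ± 81.6 CPM in SKO (log2 0.84 ± 0.12, edgeR adjusted p = 0.00133). Nqo1, a quinone reductase, and Pgd, of the pentose phosphate pathway, rose by 0.87 and 0.66, and the others that rose were Srxn1, Cbr3 and Slc7a11. Slc7a11 passed the low-count filter only through DKO, so its call among the 6 is a description only. With 1 library left out, 4 to 6 of the list were called higher. Without DKO replicate 1, and likewise without a filter, 1 of the list was called lower. Txnrd1 and Me1 were not called, at -0.21 and -0.29. Of 11 target genes of AhR, CAR and PXR, Cyp3a11 (log2 0.65) and Cyp1b1 (log2 1.51) rose and Cyp1a2 (log2 -0.96) fell.

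Markers of some other liver cells moved with the genotype. Their counts stand beside 10.3% of all genes tested called higher and 9.7% called lower. Of 8 stellate and fibroblast markers 6 rose, with summed levels of 610 to 902 CPM in DKO and 351 to 420 CPM in SKO. Of 8 cholangiocyte markers 3 rose (147 to 230 CPM in DKO, 87.6 to 99.1 CPM in SKO), of 6 macrophage markers 2 rose (455 to 691 CPM in DKO, 356 to 444 CPM in SKO), and of 6 endothelial markers none was called (322 to 354 CPM in DKO, 346 to 377 CPM in SKO). No marker of these lists was at 0 in all libraries, and DKO replicate 1 had the highest summed level of the stellate, cholangiocyte and macrophage lists. Their part in the rises of the rare members Mgst2, Gstp2, Gsta1 and Ugt1a10 was not tested.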

How the data were processed

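Liver RNA of 3 DKO and 3 SKO mouse samples was extracted with Trizol and sequenced, per the labels. What the authors deposited are raw counts of reads for 54232 Ensembl genes. Per the submitters' processing notes, the tools were STAR, cutadapt 1.13, DESeq2 and HTSeq 0.6.1p1, with the build mm10. No source used here gives their settings, the annotation release or the use of strand. Symbols and coordinates are from GENCODE M21, which matched 54165 identifiers and missed 67.

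After filterByExpr, the counts entered edgeR 4.0.16 under R 4.3.3 (robust glmQLFit, glmQLFTest, TMM factors of 0.903 to 1.13). P-values were adjusted by Benjamini-Hochberg over 13986 genes and called under 0.05; the script was tested on simulated data. CPM are counts scaled to 1e6 of the counts in tested genes times the TMM factor. The SE is the size of the log2 fold change over the square root of F. Summed levels and shares were compared by an exact permutation test over 20 splits. Intervals and limits cover counting error only. Within groups, chi-square over its degrees of freedom was 10.2 to 29.4 for pairs of libraries, so none was deposited again. Total counts were 16966422 to 21107674.

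Groups follow the genotype label, and replicate numbers follow accession order and name samples only. The members and gene lists were chosen with earlier results of these data known. By rule, per-library values are given for called members that average 1 CPM or more and for the 2 most abundant members not called in each class, and lists name up to 3 called genes of smallest p. Mgst2 and other genes named were chosen after their values were seen. Alternatives were total-count and upper-quartile scaling, no filter, DESeq2 1.42.0, limma-voom (limma 3.58.1) and leaving out each library; summing near-identical copies was added after seeing the data. Promoter sequences are from RefSeq, matched for 42 of 46 genes.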

Additional observations from a re-analysis of the deposited data

How the results depend on the processing

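Of the 16 member calls, 11 held in all 11 alternatives and 5 (Ugt1a10, Ugt2b38, Ugt3a1, Gstt3 and Gstz1) were lost in some. None changed sign in those 11 alternatives. The calls that held include Mgst2, which passed the filter only through DKO. They also include Gsta1 and Gstp2, whose sums with near-identical copies, outside those 11 alternatives, were not called. Members called higher numbered 7, and 14 with total-count scaling, 11 with no filter and 6 to 12 when 1 library was left out, with 12 without SKO replicate 1; those called lower numbered 9, and 6 to 10 with 1 library left out. With 1 library left out, 4.71% (without SKO replicate 2) to 11.0% (without DKO replicate 2) of all genes were called higher and 5.2% (without SKO replicate 2) to 8.34% (without SKO replicate 1) lower; without SKO replicate 1, 7.94% were called higher. No filter called 11 lower (7.35% of all genes higher and 6.17% lower), DESeq2 9 higher and 11 lower (9.97% and 9.66%) and limma-voom 8 and 8 (9.32% and 9.24%). Total-count scaling moved the higher share of all calls to 87.8%, upper-quartile scaling to 65.3%, from 51.6% with TMM; the cause was not tested. With total-count scaling the log2 difference turned positive for Nr1h4 (0.20), Ugt2b36 (0.012), Ugt2b5 (0.061) and Mgst1 (0.088), and for the sums of Ugt3a (0.033), Gstp (0.018), Gstk (0.17), Gsto (0.18) and Mgst (0.096). With upper-quartile scaling it did for Nr1h4 (0.044), Gstk (0.0081) and Gsto (0.026). With 1 library left out, values that changed sign ranged from -0.066 to 0.026 for Nr1h4, -0.058 to 0.11 for the GST sum, -0.32 to 0.013 for Gstp, -0.17 to 0.056 for Gstk and -0.076 to 0.033 for Gsto. Summing near-identical copies turned Gstp2 to -0.25 (edgeR adjusted p = 0.374). It took Gsta1 to 0.62 and Ugt2b38 to -0.16, and neither was called (edgeR adjusted p = 0.0578 and 0.366). Of 176 list counts under alternatives, 129 stayed within 1.5 times and 47 moved. No paired analysis was possible because the labels give no replicate numbers that the groups share.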
